A study of Homo sapiens with 12 samples.

Results

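Notch3 ChIP-seq peak lists of 6 libraries were read at 6 genes that steer entry into the cell cycle and have been described as Notch targets in other tissues: MYC, the D-type cyclins CCND1, CCND2 and CCND3, and the cyclin-dependent kinase (CDK) inhibitors CDKN1A and CDKN1B. They are 6 of the 20033 protein-coding genes placed on the main chromosomes by RefSeq. Every peak with its summit inside the hg38 span of one of the genes, or within 100 kb of it, was taken, which gave 14 of the 12583 peaks of the series. For MYC the search was widened to 2 Mb on each side, which gave 17 peaks, 1 of which also lay within 100 kb. Each gene was kept whatever its values.

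The cells were neural crest cells differentiated from the H9 line, which is an established line of human embryonic stem cells, and the series text gives 3 independent differentiations. They carried a lentivirus for the intracellular domain of Notch3 with GFP (N3ICD-GFP) or a lentivirus for GFP, and both groups were collected 6 days after transduction in the same medium, E6-CSFD. By their labels the N3ICD-GFP cells are mural and those with GFP alone are neural crest. There were 3 ChIP libraries per group, lettered A to C, made with the same Notch3 antibody, which can bind the cells' own Notch3 as well as N3ICD. The promoter of the lentivirus was not given in the sources used here. Peak lists hold no expression values, so the labelled cell types were not checked against marker genes.

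Notch receptors are cut after ligand binding, and the freed intracellular domain enters the nucleus, joins the DNA-binding protein RBPJ and the Mastermind coactivators, and raises transcription of nearby or distant genes. Cyclins D1, D2 and D3 activate CDK4 and CDK6, which phosphorylate the retinoblastoma protein and release E2F factors at the start of DNA replication. The proteins p21 (CDKN1A) and p27 (CDKN1B) bind and block cyclin-CDK complexes. MYC is a transcription factor of growth and division, and in human T-cell leukaemia Notch1 acts on it through an enhancer far from the gene. In mouse keratinocytes Notch1 raises CDKN1A.

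From A to C, the GFP lists held 1219, 1533 and 1718 peaks and the N3ICD lists 2226, 2490 and 3397. The total reads of a library are not known from the files. Its lowest common background pileup, computed from pileup and fold as a relative measure of depth, was 1.21 to 1.90 stacked fragments with GFP and 0.926 to 1.58 with N3ICD. Inside NOTCH3, the gene of the antibody's target, N3ICD A had 2 peaks, N3ICD B had 1, N3ICD C had 1 and no GFP library had any. The source of these NOTCH3 peaks was not tested, and they do not show that the antibody worked. A peak list gives no signal where no peak was called, so an absent peak is not a measured level of 0.

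Peaks near the 6 genes came from 2 of the 6 libraries. N3ICD B had 9 peaks within 100 kb of the genes, N3ICD C had 5 and N3ICD A had 0, as did each GFP library. N3ICD B and C stood above every other library, while N3ICD A equalled the GFP libraries, so the groups overlapped. The mean of the N3ICD libraries was 4.67 ± 4.51 peaks and that of the GFP libraries 0 ± 0 (SD, n = 3 per group). The difference of 4.67 was 7 without N3ICD A and 2.5 without N3ICD B. As a share of a library's peaks, the 14 peaks made up 0.361% of N3ICD B and 0.147% of N3ICD C. The windows of the 6 genes cover 1.38 Mb together. Over all protein-coding genes, the mean number of peaks within 100 kb of a gene was 0.0605 to 0.0966 in the GFP libraries. It was 0.199 in N3ICD A, 0.381 in N3ICD B and 0.474 in N3ICD C.

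**Figure D1:**
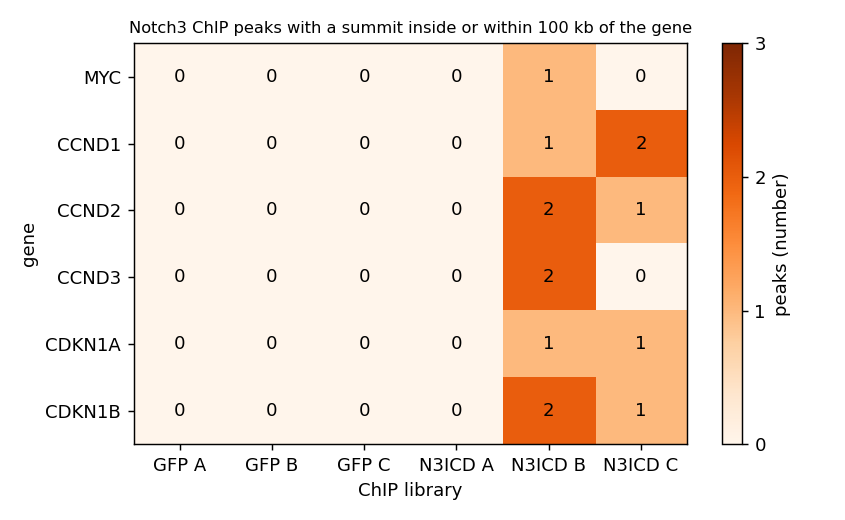
Number of Notch3 ChIP peaks with a summit inside or within 100 kb of each gene (rows) in each ChIP library (columns), with 1 library per cell of the grid. The GFP libraries and N3ICD A hold 0 at every gene, and N3ICD B and C hold 1 or 2 peaks at most genes.

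Counted as genes, N3ICD B had a peak within 100 kb of 6 of the 6 genes, where 29.7% of all protein-coding genes had one in that library. N3ICD C had a peak near 4 of the 6, against 35.2% of all genes, and lacked one at MYC and CCND3. N3ICD A had a peak near 0 of the 6, against 17.1%. The GFP libraries each had a peak near 0 of the 6, against 5.47% (A), 8.05% (B) and 7.7% (C) of all genes. The 6 genes therefore stood above the share of all genes in N3ICD B and C and below it in N3ICD A. These shares describe single libraries and carry no test.

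**Figure D2:**
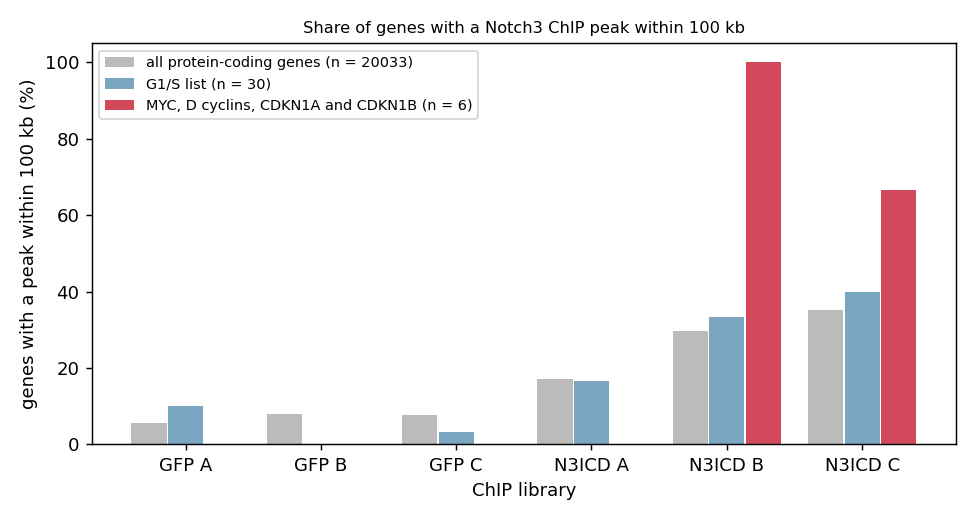
Percentage of genes with a peak within 100 kb in each ChIP library, for all protein-coding genes, for a list of 30 other genes of the G1 to S step and for the 6 genes; bars start at 0 and have no error because each is 1 library. The bars of the 6 genes reach 100% in N3ICD B and are at 0 in N3ICD A and in the GFP libraries.

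None of the 14 peaks overlapped a peak of another library. Overlap was rare in general, since 7.35% of all peaks in N3ICD B and 5.39% in N3ICD C overlapped a peak of another library by at least 1 bp. A region was called N3ICD-only when overlapping peaks came from at least 2 N3ICD libraries and from no GFP library. By this rule 0 of the 6 genes had a region within 100 kb, against 3.87% of all protein-coding genes. By a looser rule chosen after the data were seen, a gene needed peaks of 2 or more N3ICD libraries anywhere within 100 kb, and none of a GFP library. CCND1, CCND2, CDKN1A and CDKN1B met it, 4 of the 6, against 16.7% of all genes. The 4 rested on N3ICD B and C together, so the number was 0 without either of these libraries. Within 10 kb the looser rule held for CCND1 and CDKN1B, 2 of the 6, against 3.93% of all genes. More peaks in every N3ICD library than in any GFP library were found at 0 of the 6 genes and at 2.97% of all genes.

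**Figure D3:**
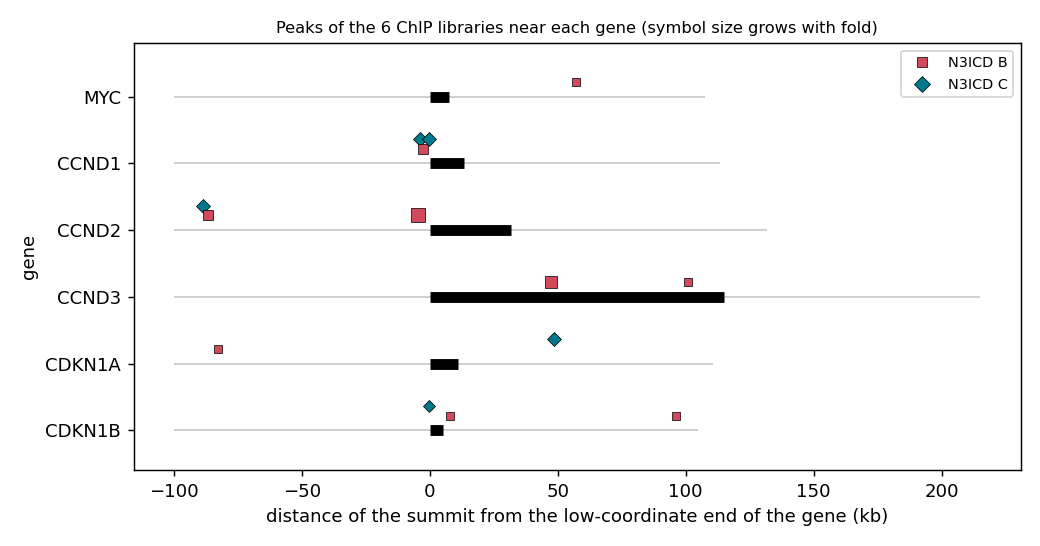
Position of the summits of the 14 peaks as distance in kb from the low-coordinate end of each gene, with the gene span as a black bar, the searched window as a grey line, and the library by colour and shape. Peaks cluster just before CCND1, at the edges of CDKN1B and in a pair near the far left of the CCND2 window, while those of CCND3 lie inside the gene.

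The D cyclins held 8 of the 14 peaks, 5 in N3ICD B and 3 in N3ICD C, and each of the 8 lay nearer to the cyclin than to any other protein-coding gene or inside it. CCND1 (chromosome 11, 69641156 to 69654474), which encodes cyclin D1, had 1 peak in N3ICD B, 2 in N3ICD C and 0 in N3ICD A and every GFP library. The groups overlapped through N3ICD A. The 3 peaks stood close together before the low-coordinate end, where CCND1 transcription starts. One summit of N3ICD C lay 154 bp before that end (69640787 to 69641010; fold 4.04, pileup of 7 fragments, −log10 q 0.828). The other N3ICD C summit lay 3742 bp before it (69637195 to 69637516; fold 3.95, pileup 7). The N3ICD B summit lay between them, 2509 bp before the gene (69638571 to 69638798; fold 3.60, pileup 10). The N3ICD B peak and the farther N3ICD C peak were separated by 1054 bp, so they were close without sharing a base. The N3ICD mean was 1 ± 1 and the GFP mean 0 ± 0 (SD, n = 3 per group; two-sided exact permutation p = 0.4, Benjamini-Hochberg adjusted p = 1 over 12986 genes with a peak).

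CCND2 (chromosome 12, 4273762 to 4305353), which encodes cyclin D2, had 2 peaks in N3ICD B, 1 in N3ICD C and 0 in N3ICD A and every GFP library. Its N3ICD B peak 4530 bp before the low-coordinate end (4269146 to 4269604) was the highest of the 14, with a fold of 5.42, a pileup of 13 fragments and a −log10 q of 3.02. It lay inside CCND2-AS1, the gene of an RNA antisense to CCND2, and its fold stood at percentile 98 of N3ICD B. N3ICD C had no peak there. The other peaks formed a pair far from the gene, with summits 86751 bp (N3ICD B, 4186895 to 4187168; fold 3.87) and 88456 bp (N3ICD C, 4185150 to 4185372; fold 3.64) before it. This pair was separated by 1522 bp and lay inside LOC105369612, a long non-coding RNA gene. The difference of 1 peak between group means again came with a two-sided exact permutation p of 0.4 (adjusted p = 1).

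CCND3 (chromosome 6, 41934933 to 42050035), which encodes cyclin D3, had 2 peaks in N3ICD B and 0 in the other 5 libraries, so a single library carried its peaks. Both lay inside the gene, which is the longest of the 6 at 115103 bp. The first (41982027 to 41982293) had a fold of 4.65, a pileup of 11 and a −log10 q of 1.71, at percentile 92.5 of its library. The second (42035574 to 42035788) had a fold of 3.27 and a −log10 q of 0.498, and its summit lay 14304 bp from the high-coordinate end, near which one of the RefSeq starts of CCND3 lies. Exon positions were not used here, so exon or intron is not stated. The two-sided exact permutation p was 1 (adjusted p = 1).

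When peaks up to 2 kb apart were joined, a setting added after the distances above were seen, CCND1 and CCND2 each gained an N3ICD-only region, 2 of the 6 genes against 5.96% of all genes. The other 4 genes had none with joining either. Of the 14 peaks, 2 reached a −log10 q of 1.3, the stronger N3ICD B peaks of CCND2 and CCND3. This q was reached by 14.1% of all peaks in N3ICD B and 20.0% in N3ICD C, so 2 of 14 was near these shares.

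The CDK inhibitor genes had 5 of the 14 peaks, 3 in N3ICD B and 2 in N3ICD C, and each of the 5 was nearer to an end of another protein-coding gene. CDKN1B (chromosome 12, 12717368 to 12722369) had 2 peaks in N3ICD B, 1 in N3ICD C and 0 in N3ICD A and every GFP library, a difference of 1 in the means (two-sided exact permutation p = 0.4, adjusted p = 1). The N3ICD C summit lay 452 bp before the start of CDKN1B (12716825 to 12717142; fold 3.12, pileup 5, −log10 q 0.147) but inside GPR19, an orphan receptor gene whose end was 330 bp away. Its fold was at percentile 8.65 of N3ICD C, the lowest percentile of the 14. An N3ICD B summit lay 2775 bp past the other end of CDKN1B (12725009 to 12725302; fold 3.48, pileup 8, −log10 q 0.498), 21 bp from the start of the long non-coding RNA gene LOC105369663 and 773 bp from APOLD1, an early response gene of endothelial cells. The third peak, also in N3ICD B (12813588 to 12813915; fold 3.48), was inside the RNA helicase gene DDX47, 384 bp from its end and 91361 bp from CDKN1B.

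The 2 promoters shown here were overlapped by the peaks at the edges of CDKN1B, and they are given for that reason. Each line gives the 250 bases before a transcription start in RefSeq (GRCh38.p14), 5′ to 3′ on the gene's own strand, with the bases covered by the peak in capitals. The first is chr12:12717118-12717367 on the plus strand, where the N3ICD C peak covers 25 bases at the far edge. The second is chr12:12725124-12725373 on the minus strand, where the N3ICD B peak covers 179 bases and holds its summit.
CDKN1B: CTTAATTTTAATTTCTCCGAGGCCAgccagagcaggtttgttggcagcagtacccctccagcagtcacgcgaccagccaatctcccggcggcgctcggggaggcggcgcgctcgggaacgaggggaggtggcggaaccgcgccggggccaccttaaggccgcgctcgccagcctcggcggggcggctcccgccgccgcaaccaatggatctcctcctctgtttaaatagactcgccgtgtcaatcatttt
LOC105369663: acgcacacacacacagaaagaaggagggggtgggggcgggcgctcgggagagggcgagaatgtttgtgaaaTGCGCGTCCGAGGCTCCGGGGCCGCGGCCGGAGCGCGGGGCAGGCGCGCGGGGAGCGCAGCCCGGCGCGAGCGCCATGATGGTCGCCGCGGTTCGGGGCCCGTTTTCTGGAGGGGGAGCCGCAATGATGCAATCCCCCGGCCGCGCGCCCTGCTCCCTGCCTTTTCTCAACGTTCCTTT

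The core of the RBPJ motif, TGGGAA on either strand, was absent from both stretches. It was present in 20.8% of the 35116 RefSeq promoter stretches of 250 bases. The promoter table held entries for 3 of the 6 genes. Its 3 CCND3 starts and its CDKN1A start also lacked these letters and were overlapped by no peak. The rest of each peak was not searched, as genome sequence beyond the promoter table was not used here.

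CDKN1A (chromosome 6, 36676463 to 36687332), which encodes p21, had 1 peak in N3ICD B, 1 in N3ICD C and 0 in N3ICD A and every GFP library. Both peaks were distant. The N3ICD B summit lay 82736 bp before the gene (36593424 to 36593822; fold 3.09, pileup 8, −log10 q 0.362) and 635 bp from SRSF3, a splicing factor gene. The N3ICD C summit lay 37590 bp past the gene (36724871 to 36725176; fold 4.15, pileup 7, −log10 q 0.828), inside RAB44, a gene of the Rab family of small GTPases. No peak lay within 10 kb of CDKN1A in any library. The N3ICD mean was 0.667 ± 0.577 and the GFP mean 0 ± 0 (SD, n = 3 per group; two-sided exact permutation p = 0.4, adjusted p = 1).

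**Figure D4:**
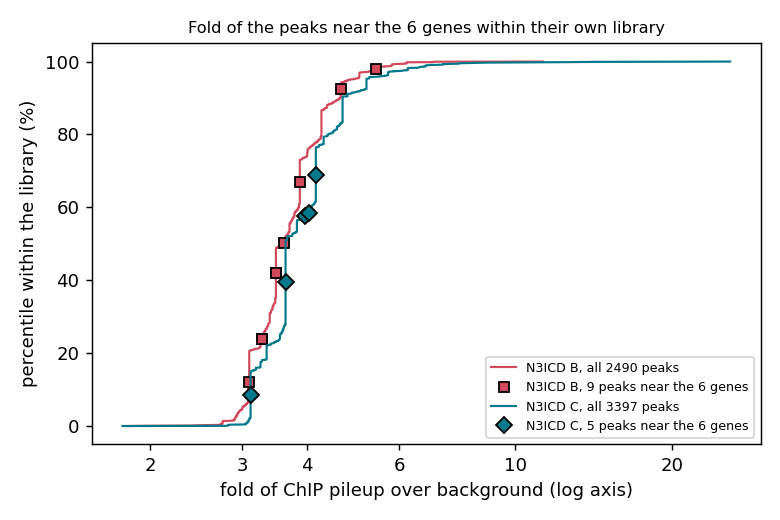
Fold of ChIP pileup over background (x axis, log scale) against the percentile of that fold within the same library (y axis) for the peaks near the 6 genes (symbols) and for all peaks of N3ICD B and C (lines). The symbols spread over most of the range, from percentile 8.65 to percentile 98.

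In strength the 14 peaks were ordinary for their libraries. Their folds ran from 3.09 to 5.42 with a median of 3.62, and the median fold of all peaks was 3.59 in N3ICD B and 3.64 in N3ICD C. Of the 14, 7 had a fold above the median of their own library. Pileups ran from 5 to 13 fragments, over an implied local background of 0.926 to 2.05 fragments. The highest folds in the lists were 11.3 in N3ICD B and 25.8 in N3ICD C.

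MYC (chromosome 8, 127735434 to 127742951) had 1 peak within 100 kb in N3ICD B and 0 in the other 5 libraries (two-sided exact permutation p = 1, adjusted p = 1). The peak, in N3ICD B (127792427 to 127792670; fold 3.27, pileup 8, −log10 q 0.498), lay 49.7 kb past the high-coordinate end of MYC and 1879 bp before PVT1, a long non-coding RNA gene beside MYC. No peak lay within 10 kb of MYC in any library. No other protein-coding gene touches the 100 kb window of MYC.

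Within 2 Mb of MYC N3ICD B had 6 peaks, N3ICD C had 5 and N3ICD A had 1, while GFP C had 4, GFP A had 1 and GFP B had 0. The groups overlapped, since GFP C exceeded N3ICD A. On average there were 4 ± 2.65 peaks with N3ICD against 1.67 ± 2.08 (SD, n = 3 per group), a difference of 2.33 with a two-sided exact permutation p of 0.3 (adjusted p = 0.464 over 19924 genes with a peak in such a window). The difference was 1.33 without N3ICD B, 3.83 without N3ICD A, 1.5 without GFP B and 3.5 without GFP C, with exact permutation p-values of 0.2 to 0.6. The same window around all protein-coding genes held a median of 3 peaks in N3ICD A, 4 in N3ICD B, 6 in N3ICD C and 1 in each GFP library. MYC was thus below this median in N3ICD A and C and above it in N3ICD B. In N3ICD B, 64.2% of genes had fewer peaks than MYC, and in N3ICD C 36.5% did. In GFP C, 85.4% did.

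**Figure D5:**
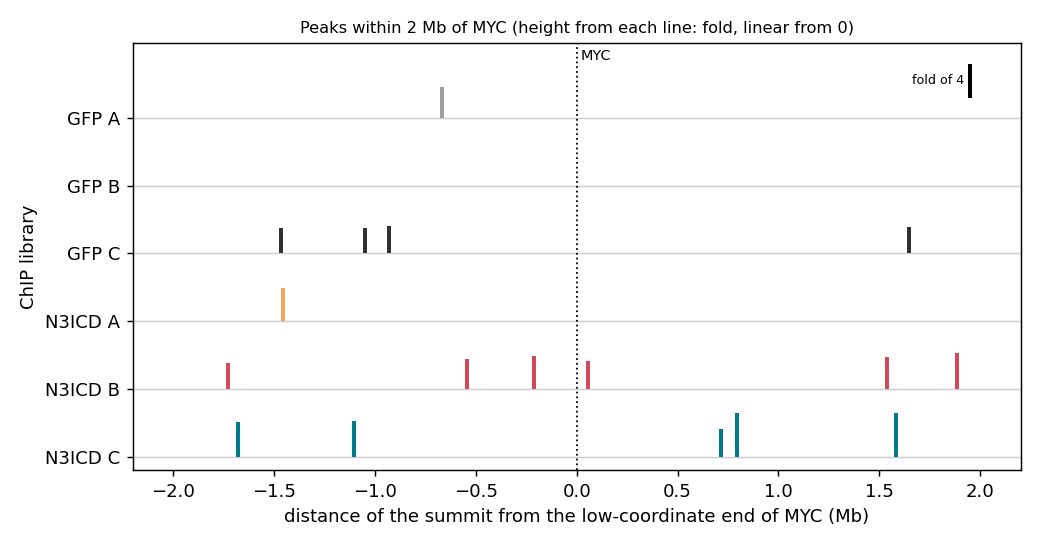
Peaks within 2 Mb of MYC in each of the 6 ChIP libraries, placed by distance in Mb from the low-coordinate end of MYC, with line height giving the fold on a linear scale from 0. The 17 peaks are scattered, GFP B has none, and none overlap between libraries, as at most 7.35% of all peaks of a library do; those of GFP C and N3ICD A near the left end, drawn almost in line, are 8259 bp apart.

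None of the 17 peaks overlapped a peak of another library, and of all peaks 1.83% (GFP B) to 7.35% (N3ICD B) did so in a library. The closest peaks of different libraries were one of N3ICD A and one of GFP C, 8259 bp apart and about 1.46 Mb before MYC. With N3ICD, 6 summits lay below MYC and 6 above it, and with GFP 4 lay below and 1 above. MYC was the nearest protein-coding gene for 3 of the 17 peaks. The others lay nearest to LRATD2, POU5F1B or GSDMC. Folds were 3.03 to 5.19 with N3ICD and 3.04 to 3.65 with GFP, with pileups of 7 to 10 fragments. The highest, chosen after the values were seen, were a pair in N3ICD C with equal folds of 5.19 and a −log10 q of 2.11. One lay 788 kb above MYC (128530681 to 128530908), inside the long non-coding RNA gene LINC00824, and the other 1.57 Mb above it (129316153 to 129316392), outside any gene. Above MYC is the side on which the leukaemia enhancer lies. The position of that enhancer was not in the sources used here, and no peak was matched to it. In N3ICD B the peaks above MYC were at 49.7 kb, 1.53 Mb (129274499 to 129274712; fold 3.74) and 1.88 Mb (129618026 to 129618324; fold 4.26), the last inside the long non-coding RNA gene CCDC26. The GFP peak above MYC, in GFP C, lay 1.64 Mb away (129382083 to 129382317; fold 3.16) and was also inside CCDC26. Of the 17, the N3ICD C pair alone reached a −log10 q of 1.3, which 1.83% (GFP B) to 20.0% (N3ICD C) of all peaks of a library reached.

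The other genes of the G1 to S step were read from a list of 30 that holds CDKs, E-type and A-type cyclins, further CDK inhibitors, the retinoblastoma and E2F families, relatives and partners of MYC, and other regulators of the same step. An N3ICD-only region lay within 100 kb of 3 of the 30, which is 10% against the 3.87% of all genes. The number was 0 without N3ICD B and 1 without N3ICD C. MNT, which encodes a MAX partner that opposes MYC, held its region inside the gene (chromosome 17, 2392952 to 2393667), with folds of 3.48 in N3ICD B and 4.15 in N3ICD C. CKS1B, which encodes a CDK-binding protein that acts with SKP2 in the breakdown of p27, had one whose summits lay 383 and 647 bp outside the gene (chromosome 1, 154973937 to 154974367; folds 4.75 in N3ICD B and 3.41 in N3ICD C). These summits lay inside SHC1, an adaptor gene of receptor tyrosine kinase signalling, 78 and 342 bp from an end of it. RBL1, which encodes the retinoblastoma relative p107, had one 83452 bp away in N3ICD B (chromosome 20, 37179091 to 37179661; fold 3.10) and 83493 bp away in N3ICD A (fold 3.97). Both summits lay inside MROH8 and RPN2, a subunit gene of the oligosaccharyltransferase complex, and 58 and 99 bp from an end of MROH8. The −log10 q of these peaks was 0.427 to 2.10.

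By the looser rule, which needs no overlap between peaks, 7 of the 30 list genes qualified, 23.3% against 16.7% of all genes, and 4 of the 30 did so within 10 kb, 13.3% against 3.93%. Of the list, 11 genes had no peak in any library, 36.7% against 35.2% of all genes, and 4 had a peak in a GFP library, 13.3% against 17.8%. Of MYC, the D cyclins and the CDK inhibitors, 0 fell in either class. Per library, 5, 10 and 12 of the 30 had such a peak in the N3ICD lists A to C, and 3, 0 and 1 in the GFP lists A to C. The shares with N3ICD, 16.7%, 33.3% and 40%, were near the 17.1%, 29.7% and 35.2% of all genes.

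Likeness to the 6 genes was taken as the Euclidean distance between peak numbers within 100 kb over the 6 libraries. CKS1B and MNT had the same numbers as CCND2 and as CDKN1B, a distance of 0, and CDK2 the same as CCND3. CDK4 and RB1 were among the nearest to CCND1, and CCNA2, CCNE1 and CDK2 to MYC, each at a distance of 1. Ties were taken in alphabetical order. CCNE1 had no peak in any library. As MYC had 1 peak, each of the 11 list genes without a peak lay at the same distance from it. Patterns like those of the 6 genes were common among all protein-coding genes. There were 225 others with the numbers of CCND2, 313 with those of CCND1, 328 with those of CCND3, 931 with those of CDKN1A and 1813 with those of MYC.

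Over all 12986 genes with a peak within 100 kb, the exact permutation test gave no p under 0.05, and 617 genes reached 0.1, the smallest two-sided p that 3 libraries against 3 can give. None of the 6 genes was among the 617. Adjusted p-values were 1 at this window.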

How the data were processed

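The 6 ChIP libraries have peak lists, and data of the 6 inputs were not analysed here. Fixation was in 1% formaldehyde and digestion of chromatin enzymatic, per the labels' protocols. The submitters' processing notes name MACS3 3.0.0a7, Bowtie2 2.2.1, deepTools 3.5.1, SAMtools 1.11 and bedtools 2.30.0, and hg38. Their options and the control of each peak call are not given in the sources used here. Peak calling was done by the authors library by library. Each deposited fold is a ratio at the summit, (pileup + 1) / (local background + 1), as the values show, the deposited −log10 p and −log10 q are the peak caller's, and the deposited signal is the summit pileup in fragments. The lowest −log10 p was 3.3, so the lists are lenient. Local background was computed as (pileup + 1) / fold − 1.

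Gene spans came from the RefSeq table of GRCh38.p14, the assembly of hg38. Positions are 1-based. Summits within 100 kb, or 2 Mb for MYC, were counted for every protein-coding gene, and group means were compared with two-sided exact permutation tests, Benjamini-Hochberg adjusted over all genes with a peak. The labels do not tie a letter to a differentiation, so the p-values measure the spread between these libraries. The 6 genes and the list of 30 were chosen with earlier results of these data known. Named were the 6 genes, list genes with an N3ICD-only region, the gene nearest to each peak, and up to 3 list genes most alike, of which 1 is not reported here. Genes of other kinds beside a peak were named after the values were seen. Alternatives changed the window, assignment, q threshold, overlap rule, number of peaks and libraries. The counting was tested on simulated data. Versions were pandas 2.3.3, numpy 2.4.6, matplotlib 3.10.9 and SciPy 1.17.1 under Python 3.11.15.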

Additional observations from a re-analysis of the deposited data

How the results depend on the processing

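The difference around MYC kept its direction or fell to 0 under every setting run. Near the 6 genes no reversal was possible, since every GFP library held 0 peaks there and no setting added peaks. The difference of 4.67 peaks near the 6 genes was 3.33 within 50 kb, 2.67 within 10 kb, 3 with the gene as nearest, 1.67 with equal numbers of peaks (1219 per library), 0.667 with −log10 q from 1.3 up and 0 with it from 5 up, where no such peak was left; it ranged from 2.5 to 7 with 1 library left out. The difference in share of peaks ranged from 0.0736 to 0.254 percentage points with 1 library left out. The difference of 2.33 around MYC was 1 within 1 Mb, 2 with equal numbers, 0.667 with −log10 q from 1.3 up, 0 with it from 5 up, and 1.33 to 3.83 with 1 library left out. With the replicate block, differences between libraries of the same letter averaged 4.67 near the 6 genes and 2.33 around MYC. By arithmetic these means equal the differences between group means, so they are no separate check. The exact sign-flip p for MYC was 0.5, where 0.25 is the smallest possible. Same-letter libraries had correlations over genes of -0.00677, -0.00748 and -0.0227 for A, B and C, and different letters -0.0132 to 0.0183. With so few peaks per gene, these values cannot tell whether a letter marks the same differentiation in both groups. The letters were not taken as pairs because the labels do not state it.

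Genes of the 6 with an N3ICD-only region numbered 0 under each planned setting and with any 1 library left out. No other number was possible there, since none of the 14 peaks overlapped a peak of another library. With peaks up to 2 kb apart joined, the number was 2. List genes with one numbered 3, then 0 with −log10 q from 1.3 up, and 0 to 3 with 1 library left out. The 4 genes by the looser rule were 2 within 50 kb, 2 within 10 kb, 0 with −log10 q from 1.3 up, 0 with equal numbers of peaks, and 0 to 4 with 1 library left out. Of all protein-coding genes, 3.93% met the looser rule within 10 kb. The share of all genes with 50 kb, the q threshold, equal numbers or 1 library left out is not given here. The falls in these counts therefore cannot be set against it. With pileups of 5 to 13 fragments per peak, depth limits what a missing peak shows.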
